A study of Mus musculus with 3 samples.

Results

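Collagens are the main structural proteins of the extracellular matrix, and the 44 genes described here are the mouse genes for their chains: every protein-coding gene on the autosomes and X whose symbol is Col, a number, a and a number, out of 21728 protein-coding genes of the GENCODE annotation. The rule uses symbols and chromosomes, not measured values. Accessibility of their chromatin was read from single-nucleus multiome libraries of snap-frozen wild-type mouse hearts, whose titles carry 3 months without saying of what. The mice had been given sunitinib together with Yoda1, sunitinib alone, or vehicle, with 1 library for each group. Sunitinib blocks several receptor tyrosine kinases and is given against tumours, Yoda1 is a chemical that opens the mechanically gated cation channel PIEZO1, and the series is about the toxicity of such kinase inhibitors to the heart. The labels do not give the number of animals behind a library. Only the ATAC data were used, so all values are accessibility and none is expression.

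Collagen chains assemble as trimers, are hydroxylated, glycosylated and trimmed, and are then cross-linked outside the cell. In the heart, types I and III form the fibrils that bear load between muscle cells and that accumulate in scar, type V chains take part in starting those fibrils, and types IV, XV and XVIII lie in or beside the basement membranes around vessels and muscle cells. Type VI builds beaded filaments near cells, FACIT collagens (types IX, XII, XIV, XVI, XIX, XX and XXII) attach to fibril surfaces, and transmembrane collagens sit in the cell membrane. Fibroblasts are the main source of the fibrillar chains, while endothelial and mural cells contribute the type IV chains of vessel walls.

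The promoters of 4 members are printed because results given further on turn on them: the type IV pair Col4a1 and Col4a2, which are read in opposite directions from start sites 21 bp apart, and Col1a2 and Col6a1, the members with the lowest ratios over whole libraries. Each stretch is the RefSeq promoter of build GRCm38.p6, from 250 bases before to 50 after the start, at chr8:11312777-11313076 on the minus strand (Col4a1), chr8:11312555-11312854 on the plus strand (Col4a2), chr6:4505368-4505667 on the plus strand (Col1a2) and chr10:76725995-76726294 on the minus strand (Col6a1). Capitals mark matches on either strand to the TATA box core TATAAA, the CCAAT box, the GC box core GGGCGG that Sp1 factors bind, and the CAGAC element that SMAD factors bind, so that a motif on the other strand stands in its complementary letters.
Col4a1: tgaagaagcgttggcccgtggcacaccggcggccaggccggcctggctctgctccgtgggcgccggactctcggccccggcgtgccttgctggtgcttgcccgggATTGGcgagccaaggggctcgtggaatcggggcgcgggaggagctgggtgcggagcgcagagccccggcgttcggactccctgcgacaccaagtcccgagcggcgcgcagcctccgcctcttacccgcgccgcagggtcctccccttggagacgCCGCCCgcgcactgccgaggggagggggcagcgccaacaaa
Col4a2: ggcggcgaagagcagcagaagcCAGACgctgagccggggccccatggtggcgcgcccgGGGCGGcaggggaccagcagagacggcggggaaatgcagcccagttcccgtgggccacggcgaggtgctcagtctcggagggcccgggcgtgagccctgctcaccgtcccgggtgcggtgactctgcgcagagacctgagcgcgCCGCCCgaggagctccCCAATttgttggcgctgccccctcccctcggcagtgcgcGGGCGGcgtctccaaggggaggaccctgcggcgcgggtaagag
Col1a2: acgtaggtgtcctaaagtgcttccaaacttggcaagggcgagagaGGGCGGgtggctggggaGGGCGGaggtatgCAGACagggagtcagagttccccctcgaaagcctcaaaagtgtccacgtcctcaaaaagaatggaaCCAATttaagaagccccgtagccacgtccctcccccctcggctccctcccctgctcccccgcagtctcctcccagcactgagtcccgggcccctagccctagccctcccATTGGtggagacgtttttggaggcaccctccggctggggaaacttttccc
Col6a1: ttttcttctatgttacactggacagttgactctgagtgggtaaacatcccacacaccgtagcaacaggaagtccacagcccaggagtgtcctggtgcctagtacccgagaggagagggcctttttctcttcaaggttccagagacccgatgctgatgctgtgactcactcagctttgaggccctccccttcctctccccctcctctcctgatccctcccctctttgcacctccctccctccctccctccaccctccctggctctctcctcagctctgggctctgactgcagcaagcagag
The Col4a1 and Col4a2 stretches overlap, and both hold CCAAT and GGGCGG, with 1 and 1 match in Col4a1 and 1 and 3 in Col4a2, which also holds CAGAC. The Col1a2 promoter holds 2 matches to CCAAT, 2 to GGGCGG and 1 to CAGAC, the Col6a1 promoter holds none of the 4 motifs, and no matches overlap each other. RefSeq promoters were at hand for 35 of the 44 members, 38 promoters in all. Of these, 23 held GGGCGG (60.5%, against 35.7% of all 32851 promoters), 13 held CCAAT (34.2% against 37.4%), 20 held CAGAC (52.6% against 49.6%) and 5 held TATAAA (13.2% against 13.6%). A match is a description of letters and not a binding site. Over all barcodes, the printed stretch took 82 sunitinib and 61 vehicle fragments at Col4a1, and 91 sunitinib and 61 vehicle fragments at Col4a2. At Col1a2 it took 18 sunitinib and 26 vehicle fragments, and at Col6a1 21 sunitinib and 26 vehicle fragments.

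The 3 libraries differed in depth and make-up. The sunitinib plus Yoda1 library held 583792 unique fragments, the sunitinib library 23653823 and the vehicle library 18704581. Nuclei, taken as barcodes with at least 1000 fragments and an enrichment at start sites of at least 4, numbered 12 with sunitinib plus Yoda1, 3861 with sunitinib and 2690 with vehicle, so cell classes are compared between sunitinib and vehicle alone. The sunitinib plus Yoda1 library stands apart: 42.1% of its fragments shared both ends with another fragment, and its comparisons rest on the 258020 fragments backed by at least 100 read pairs, of which 0.288% did. The sunitinib and vehicle libraries had 22 nucleus barcodes in common. Clusters were made from genome tiles that held no collagen gene and were named from markers that are no collagen genes, so the collagen values did not choose the classes. T lymphocyte-like nuclei made up 35.6% of nuclei with sunitinib and 9.22% with vehicle, fibroblast-like nuclei 8.11% with sunitinib and 14.3% with vehicle, vascular endothelial-like nuclei 27.8% with sunitinib and 39.0% with vehicle, and cardiomyocyte-like nuclei 15.8% with sunitinib and 14.7% with vehicle. All 10 cardiomyocyte markers were at least 2-fold more accessible in the cardiomyocyte-like cluster than in the other nuclei. Every 95% interval covers counting error only, no difference could be set against variation between animals, and no test between groups was possible.

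The first question was which cells of these hearts hold open collagen chromatin. Levels are fragments over the gene body plus 2 kb upstream, per kb and per 1000000 fragments of the same nuclei. Summed over all members, fibroblast-like nuclei had the highest level, 0.592 with sunitinib and 0.644 with vehicle (intervals 0.575 to 0.610 and 0.624 to 0.665). Mural-like nuclei (pericytes and smooth muscle) followed at 0.476 with sunitinib and 0.487 with vehicle, then epicardial or mesothelial-like nuclei at 0.446 with sunitinib and 0.443 with vehicle. Endocardial-like nuclei stood at 0.415 with sunitinib and 0.418 with vehicle, cardiomyocyte-like nuclei at 0.410 with sunitinib and 0.400 with vehicle and vascular endothelial-like nuclei at 0.380 with sunitinib and 0.390 with vehicle. Blood cell classes were lowest, with myeloid-like nuclei at 0.246 with sunitinib and 0.269 with vehicle, T lymphocyte-like nuclei at 0.208 with sunitinib and 0.226 with vehicle and B lymphocyte-like nuclei at 0.189 with sunitinib and 0.199 with vehicle. The B lymphocyte-like class differed in its markers between the libraries. Its B lymphocyte marker level was 0.871 with sunitinib and 1.927 with vehicle, and its T lymphocyte marker level 1.803 with sunitinib and 1.023 with vehicle. Over these windows fibroblast-like nuclei stood above and the blood cell classes below all others in both libraries, with intervals that did not overlap those of their neighbours. Within the middle of the order neighbours were mostly not apart. The intervals of mural-like and epicardial or mesothelial-like nuclei overlapped in both libraries, as did those of epicardial or mesothelial-like and endocardial-like nuclei and those of endocardial-like and cardiomyocyte-like nuclei. Those of cardiomyocyte-like and vascular endothelial-like nuclei overlapped with vehicle. The cardiomyocyte-like class also holds a part with weak cardiomyocyte markers, described further on, whose collagen level was above that of the whole class. Its place in the order is therefore not that of nuclei with strong cardiomyocyte markers alone. Within 1 kb of start sites the ends of the order were not apart. Intervals overlapped in both libraries for fibroblast-like (2.625 with sunitinib and 2.984 with vehicle) and mural-like nuclei (2.511 with sunitinib and 2.661 with vehicle). So did those of myeloid-like (1.064 with sunitinib and 1.088 with vehicle) and cardiomyocyte-like nuclei (1.161 with sunitinib and 1.218 with vehicle). Vascular endothelial-like nuclei had higher values there (1.534 with sunitinib and 1.466 with vehicle). Their interval was apart from those of these 2 classes with sunitinib (1.433 to 1.640) and overlapped both with vehicle (1.352 to 1.588). The median start-site level over all genes was also lower in cardiomyocyte-like nuclei (2.060 with sunitinib and 2.143 with vehicle) than in vascular endothelial-like nuclei (2.977 with sunitinib and 2.799 with vehicle).

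The classes also differed in which collagens were open. In fibroblast-like nuclei the highest level was at Col1a1, the main chain of type I fibrils, 2.76 with sunitinib and 2.99 with vehicle. The type IV chains of basement membranes were high there too, Col4a1 at 2.51 with sunitinib and 2.91 with vehicle, second to Col1a1 in both libraries, and Col4a2 at 2.23 with sunitinib and 2.56 with vehicle. Col5a3, a type V chain, stood there at 1.47 with sunitinib and 2.71 with vehicle, Col1a2, the second type I chain, at 1.07 with sunitinib and 1.80 with vehicle, and Col3a1, the type III chain, at 1.44 with sunitinib and 1.77 with vehicle. In vascular endothelial-like nuclei the type IV chains led, Col4a1 at 3.04 with sunitinib and 3.09 with vehicle and Col4a2 at 2.96 with sunitinib and 2.94 with vehicle. Col1a1 came next there (1.45 with sunitinib and 1.53 with vehicle), while Col1a2 was low (0.150 with sunitinib and 0.194 with vehicle). The type I pair was thus open together in fibroblast-like nuclei and apart in vascular endothelial-like nuclei. Mural-like nuclei had Col4a1 at 2.88 with sunitinib and 2.96 with vehicle, Col4a2 at 2.77 with sunitinib and 2.66 with vehicle and Col1a1 at 2.01 with sunitinib and 2.11 with vehicle. Col1a1 was among the more accessible members in T lymphocyte-like nuclei as well (1.07 with sunitinib and 1.30 with vehicle), and its window of 18819 bp is among the shortest. In cardiomyocyte-like nuclei Col4a2 led at 1.36 with sunitinib and 1.54 with vehicle. Col15a1, whose chain lies between basement membrane and interstitium, reached 1.98 with sunitinib and 2.30 with vehicle in fibroblast-like nuclei, 1.41 with sunitinib and 1.49 with vehicle in myeloid-like nuclei and 1.40 with sunitinib and 1.21 with vehicle in T lymphocyte-like nuclei.

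**Figure D1:**
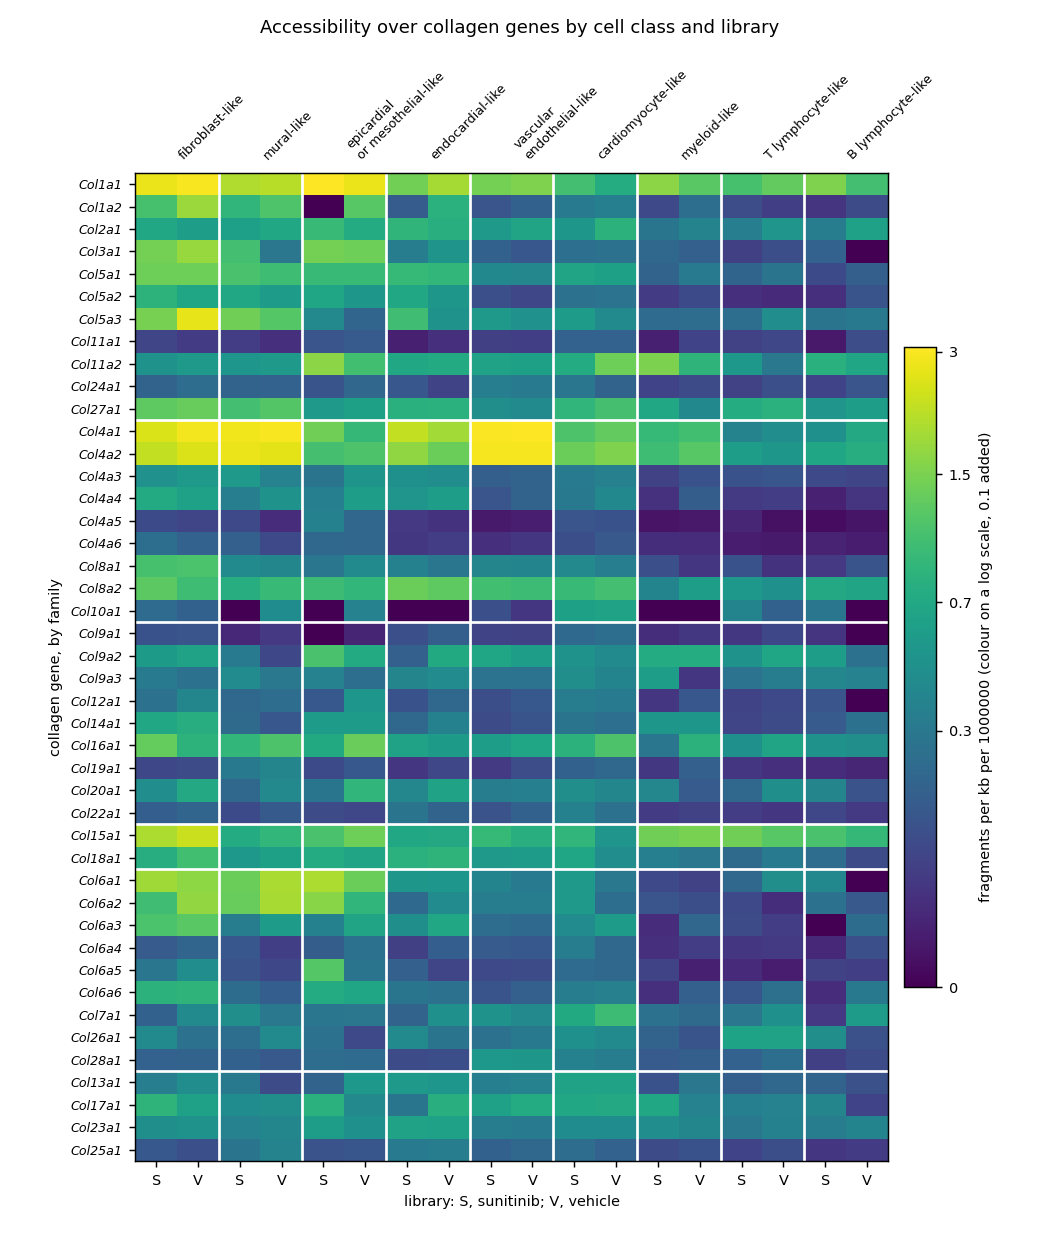
Accessibility over each collagen gene (rows, by family, from fibrillar at the top to transmembrane at the bottom) in each cell class (columns, sunitinib library left of vehicle library), in fragments per kb per 1000000 fragments on a log colour scale. Col1a1 is bright in all classes, Col4a1 and Col4a2 are bright in vascular endothelial-like, mural-like and fibroblast-like nuclei, and the lymphoid columns are dark for most members.

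The class with the highest level was the same in both libraries for 26 of 44 members. The fibroblast-like class was highest for 14 members with sunitinib and 16 with vehicle, 11 of them in both: the fibrillar chains Col1a2, Col5a1, Col5a2, Col5a3 and Col27a1, the type VI chains Col6a3 and Col6a6, Col4a4, Col8a1, Col14a1 and Col15a1. The vascular endothelial-like class was highest in both for 4 members (Col4a1, Col4a2, Col24a1 and Col28a1), the cardiomyocyte-like class for 6 and the T lymphocyte-like class for Col26a1. The cardiomyocyte-like class had the lowest median enrichment at start sites of all classes, 17.7 with sunitinib and 18.7 with vehicle. Col1a1, Col3a1, Col6a1 and Col6a2 were highest in epicardial or mesothelial-like nuclei with sunitinib, a class of 18 nuclei there. With vehicle Col1a1 and Col3a1 were highest in fibroblast-like nuclei and Col6a1 and Col6a2 in mural-like nuclei. The same counts were not made over all genes, so these numbers describe the members and show nothing particular to collagens.

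Each class was then set against the other nuclei outside the lymphoid classes, with a member counted when it was at least 2-fold apart in both libraries. A gene counted as measured had at least 200 fragments over both sides and an expected 30 on each. In fibroblast-like nuclei 8 of 28 measured members were higher, against 1.73% of all measured genes: the type V chains Col5a1, Col5a2 and Col5a3, the type VI chains Col6a3 and Col6a6, the FACIT collagen Col14a1, the network collagen Col8a1, and Col15a1. None was lower, against 1.58%. The log2 ratio for Col5a3 was 1.27 with sunitinib (0.91 to 1.62) and 2.47 with vehicle (2.13 to 2.81), and for Col14a1 1.72 with sunitinib (1.46 to 1.97) and 1.66 with vehicle (1.39 to 1.92). Col5a3 stood further above the other nuclei with vehicle, while Col14a1 had intervals that overlapped. In vascular endothelial-like nuclei 1 of 28 was higher, Col28a1, a relative of the beaded filament collagens, against 2.01% of genes, and 7 were lower (Col4a4, Col5a1, Col5a2, Col6a3, Col6a6, Col14a1 and Col27a1), against 3.19%. Col28a1 had a log2 ratio of 1.04 with sunitinib (0.81 to 1.27) and 1.24 with vehicle (0.98 to 1.51). Col4a1 stood at 0.79 with sunitinib and 0.67 with vehicle and Col4a2 at 0.77 with sunitinib and 0.68 with vehicle, short of 2-fold. In mural-like nuclei 0 of 13 were higher (2.2% of genes) and Col28a1 was lower (1.52%), and in cardiomyocyte-like nuclei 0 of 28 were higher (2.06%) and Col4a1 was lower (3.66%). In T lymphocyte-like nuclei 0 of 13 were higher, against 3.58% of genes, and 5 were lower (Col4a1, Col4a2, Col5a1, Col8a1 and Col14a1), against 12.1%. In myeloid-like nuclei 0 of 10 were higher (2.06% of genes) and Col4a1 and Col5a1 were lower (11.6%), and in B lymphocyte-like nuclei 0 of 2 were higher (0.636%) and both, Col4a1 and Col4a2, were lower (21.0%). In epicardial or mesothelial-like nuclei the 1 measured member, Col4a2, was lower (7.14% of genes, with 1.02% higher), and in endocardial-like nuclei 0 of 5 were higher (0.557%) or lower (0.637%).

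Each gene was next divided into bins of 500 bp to find where its fragments gather, with both libraries pooled and levels on the same scale. For 15 members the bin with most fragments lay at a start site, for 2 upstream, for 19 in an intron, and for 8 it overlapped an exon. At Col1a2 this bin lay at the start (chr6:4505064-4505563), at 14.2 in fibroblast-like nuclei, from 8 sunitinib and 10 vehicle fragments, and at 1.12 in vascular endothelial-like nuclei. The leading Col1a1 bin (chr11:94936974-94937473, at a start site) was open in every class, from 31.5 in fibroblast-like and 23.1 in vascular endothelial-like to 14.8 in T lymphocyte-like and 9.51 in cardiomyocyte-like nuclei. The Col1a2 bin was thus more selective between these classes than the Col1a1 bin. At Col6a2 the start bin (chr10:76623381-76623880) reached 29.0 in mural-like and 13.4 in fibroblast-like nuclei.

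Some of these leading intronic bins differed in level between classes. The Col6a3 bin 5.5 kb into the gene (chr1:90838222-90838721) reached 22.0 in fibroblast-like nuclei and 1.39 in vascular endothelial-like nuclei, and the Col5a3 bin at 20.5 kb (chr9:20794318-20794817) 19.7 in fibroblast-like and 3.07 in vascular endothelial-like nuclei. The reverse held 98 kb into Col28a1 (chr6:8094368-8094867), with 29.3 in vascular endothelial-like and 5.51 in fibroblast-like nuclei, and 179 kb into Col24a1, a minor fibrillar chain (chr3:145471222-145471721), with 19.8 in vascular endothelial-like and 0.787 in fibroblast-like nuclei. Col26a1 had its leading bin 19 kb into the gene (chr5:136863960-136864459), where T lymphocyte-like nuclei had 23.7 and fibroblast-like nuclei 4.72. These bins were picked for holding most fragments, and classes with many fragments, such as the vascular endothelial-like and T lymphocyte-like ones, weigh most in that choice. A high level in such a class is therefore not independent of the choice. Single classes have few fragments there: the Col6a3 bin held 16 sunitinib and 12 vehicle fragments of fibroblast-like nuclei, and the classes named as low held fewer still.

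The Col4a1 and Col4a2 pair shows how classes differ along a gene. Bins of 2 kb at the shared start were open in fibroblast-like nuclei (10.7 with sunitinib and 7.04 with vehicle), in vascular endothelial-like nuclei (13.4 with sunitinib and 12.9 with vehicle) and in mural-like nuclei (15.1 with sunitinib and 9.92 with vehicle), and little in T lymphocyte-like nuclei (1.15 with sunitinib and 1.74 with vehicle). At 34 kb into Col4a1 vascular endothelial-like nuclei had 17.1 with sunitinib and 15.5 with vehicle, and fibroblast-like nuclei 6.77 with sunitinib and 9.68 with vehicle. At 70 kb into Col4a2 the order was the other way round, with 16.0 with sunitinib and 19.4 with vehicle in fibroblast-like nuclei, and 11.2 with sunitinib and 8.51 with vehicle in vascular endothelial-like nuclei. The bin of 500 bp at 33.5 kb into Col4a1 (chr8:11279077-11279576, at an annotated inner start site) reached 39.3 in vascular endothelial-like and 5.51 in fibroblast-like nuclei, and the one at 55 kb into Col4a2 (chr8:11367555-11368054, in an intron) 36.8 in vascular endothelial-like and 4.72 in fibroblast-like nuclei. Their log2 ratios of sunitinib over vehicle over all barcodes had intervals that held 0, at -0.11 (-0.50 to 0.28) and 0.18 (-0.23 to 0.60).

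**Figure D2:**
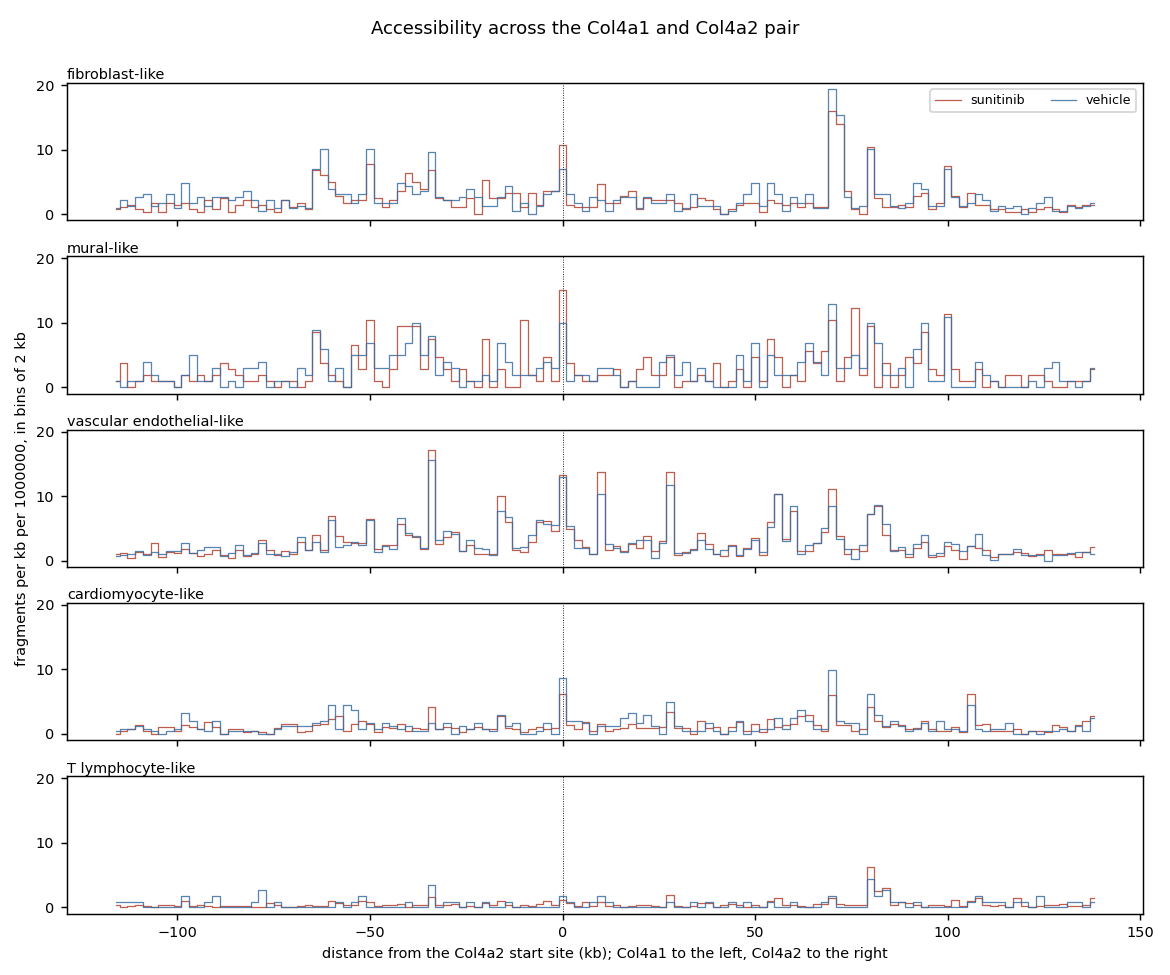
Fragments per kb per 1000000 fragments in bins of 2 kb (vertical axis) against distance in kb from the Col4a2 start (horizontal axis, Col4a1 to the left and Col4a2 to the right) for 5 cell classes, with sunitinib in red and vehicle in blue. At 34 kb into Col4a1 vascular endothelial-like nuclei stand at 17.1 with sunitinib and 15.5 with vehicle, and at 70 kb into Col4a2 fibroblast-like nuclei at 16.0 with sunitinib and 19.4 with vehicle.

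Counts at 3 such divergent pairs touch each other. The windows of Col4a1 and Col4a2 share 4022 bp, those of Col4a3 and Col4a4, whose starts are 72 bp apart, 3929 bp, and those of Col4a5 and Col4a6, 1309 bp apart on the X chromosome, 2692 bp. Fragments there count for both genes of a pair, and sums over members count each fragment once. The windows of Col10a1 (with Nt5dc1), Col18a1 (with Slc19a1), Col11a2 (with Rxrb) and Col9a3 (with Ogfr and Tcfl5) overlap other protein-coding genes, and accessibility there cannot be given to one gene.

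The second comparison set the sunitinib library against the vehicle library over all barcodes, to ask whether the inhibitor went with a difference in collagen chromatin. Collagen genes took a smaller share of fragments with sunitinib: 50219 sunitinib fragments, a level of 0.391, against 46443 vehicle fragments, a level of 0.457, and a log2 ratio of the sums of -0.23 (-0.24 to -0.21). Of 44 members 43 were measured, Col10a1 (82 sunitinib and 68 vehicle fragments) being under the minimum. Of these 15 were lower by a log2 ratio of 0.32 or more, against 7.26% of all measured genes, and 0 were higher by as much, against 13.8%. The ratio was below 0 for 41 of 43, against 35.9% of all genes, and the members' median was -0.27 against 0.10 over all genes. In a whole library fewer cells of a type and less accessible chromatin per cell cannot be told apart.

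The 4 lowest were Col1a2 and the 3 type VI chains that form the common heterotrimer. Col1a2 had 279 sunitinib and 342 vehicle fragments (-0.63, -0.87 to -0.40). Col6a1 had 317 sunitinib and 362 vehicle fragments (-0.53, -0.75 to -0.31), Col6a3 765 sunitinib and 860 vehicle fragments (-0.51, -0.65 to -0.37) and Col6a2 416 sunitinib and 467 vehicle fragments (-0.51, -0.70 to -0.31). The sunitinib library held fewer fragments at each of these although it was the deeper library. The other members past the fold were the cartilage fibril gene Col2a1 (-0.48), the type VI chains Col6a6 (-0.47) and Col6a4 (-0.37), the FACIT members Col12a1 (-0.43), Col14a1 (-0.34) and Col19a1 (-0.34), the transmembrane members Col13a1 (-0.40) and Col17a1 (-0.37), Col5a1 (2378 sunitinib and 2453 vehicle fragments, -0.38, -0.47 to -0.30), Col7a1 of anchoring fibrils (-0.36) and Col18a1, whose chain yields endostatin (1636 sunitinib and 1643 vehicle fragments, -0.35, -0.45 to -0.25). Col5a3 lay just inside, with 759 sunitinib and 745 vehicle fragments (-0.31, -0.46 to -0.16).

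Over all barcodes the other interstitial fibril chains differed less. Col1a1 had 650 sunitinib and 556 vehicle fragments (-0.11, -0.28 to 0.05), Col3a1 302 sunitinib and 252 vehicle fragments (-0.08, -0.32 to 0.17) and Col5a2 694 sunitinib and 601 vehicle fragments (-0.13, -0.29 to 0.03), so the interval of each held 0. The basement membrane pair was slightly lower, with 3795 sunitinib and 3433 vehicle fragments (-0.19, -0.26 to -0.13) at Col4a1 and 4782 sunitinib and 4153 vehicle fragments (-0.14, -0.20 to -0.08) at Col4a2. The 4 highest members were Col15a1 (2723 sunitinib and 1878 vehicle fragments, 0.20, 0.11 to 0.28), Col26a1 (1923 sunitinib and 1508 vehicle fragments, 0.01, -0.09 to 0.11), Col28a1 (1381 sunitinib and 1147 vehicle fragments, -0.07, -0.19 to 0.04) and Col3a1. Col15a1 was the 1 member whose interval lay above 0. Some of these values differed over called nuclei alone, with the lymphoid classes included. Col3a1 had 187 sunitinib and 157 vehicle fragments there (-0.40, -0.72 to -0.09), lower past the fold, as was Col4a1 (-0.348, -0.431 to -0.265). Col26a1 was higher past the fold (0.40, 0.22 to 0.58), and the collagen sum was -0.21 (-0.24 to -0.18).

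By family, the summed log2 ratio was -0.23 (-0.27 to -0.19) for the 11 fibrillar genes (3 lower past the fold), -0.18 (-0.22 to -0.14) for the network-forming genes (0 of 8 measured) and -0.31 (-0.36 to -0.26) for the 9 FACIT genes (3). It was -0.03 (-0.10 to 0.03) for the 2 multiplexins Col15a1 and Col18a1 (1), -0.27 (-0.32 to -0.22) for the beaded, anchoring and other genes (6 of 9) and -0.28 (-0.32 to -0.23) for the 4 transmembrane genes (2). The interval of the multiplexin sum held 0, and each other family's interval lay below 0. Within 1 kb of start sites 11 members were measured, with a median of -0.15 against 0.26 over all genes. There 2 were lower past the fold, Col18a1 (208 sunitinib and 228 vehicle fragments, -0.47, -0.75 to -0.19) and Col8a2 (130 sunitinib and 130 vehicle fragments, -0.34, -0.70 to 0.02), against 2.56% of genes, and 2 were higher, Col15a1 (306 sunitinib and 158 vehicle fragments, 0.61, 0.33 to 0.90) and Col27a1 (266 sunitinib and 167 vehicle fragments, 0.33, 0.05 to 0.62), against 35.4%.

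Cell make-up moved with this result. The summed level of the 10 T lymphocyte markers was 1.12 with sunitinib and 0.595 with vehicle, with 10 of 10 higher and none without fragments, and T lymphocyte-like nuclei had the low collagen levels given above. Fibroblast markers summed to 0.551 with sunitinib and 0.643 with vehicle, 0 of 9 measured being higher, a log2 ratio of -0.22 (-0.28 to -0.17) beside the collagen sum of -0.23. In called nuclei outside the lymphoid classes the collagen sum was -0.04 (-0.07 to -0.01), with a median of -0.05 against 0.00 over all genes. Of 40 members measured there, 2 were lower past the same fold, against 2.36% of genes, and 0 higher, against 2.0%. These were Col1a2 (130 sunitinib and 181 vehicle fragments, -0.76, -1.10 to -0.43) and the FACIT member Col19a1 (370 sunitinib and 396 vehicle fragments, -0.38, -0.59 to -0.18). Most of the shortfall over whole libraries was thus not seen in these nuclei, and Col1a2 kept its place as the lowest member. Col6a3 had 309 sunitinib and 307 vehicle fragments (-0.28, -0.51 to -0.05), Col6a2 148 sunitinib and 145 vehicle fragments (-0.26, -0.60 to 0.08) and Col6a1 125 sunitinib and 98 vehicle fragments (0.06, -0.33 to 0.46), so that Col6a3 alone of the 3 had an interval below 0. Col1a1 (-0.10), Col3a1 (-0.14), Col5a1 (-0.04), Col5a2 (0.09), Col4a1 (-0.04), Col4a2 (0.00), Col15a1 (0.05) and Col18a1 (-0.05) had intervals that held 0, and the highest measured members were Col6a4 (0.20), Col24a1 (0.19), Col26a1 (0.16) and Col4a5 (0.16).

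Single bins of 2 of the highest members over whole libraries were open in lymphoid nuclei. The T lymphocyte-like bin in the Col26a1 intron took 87 sunitinib and 30 vehicle fragments over all barcodes, a log2 ratio of 1.18 (0.58 to 1.85). Within T lymphocyte-like nuclei it took 42 sunitinib and 6 vehicle fragments, a ratio of 0.11 (-1.04 to 1.73) on the scale of that class. The leading Col15a1 bin (chr4:47250911-47251410, in an intron at 43 kb) took 86 sunitinib and 38 vehicle fragments over all barcodes (0.83, 0.27 to 1.43), and its levels were 20.3 in B lymphocyte-like, 18.5 in myeloid-like, 11.8 in T lymphocyte-like and 6.30 in fibroblast-like nuclei.

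The same comparison was then made within each of 9 cell classes, where the share of a class in its library no longer enters. The fold was set at 1.5 because classes hold fewer fragments. The collagen sum was -0.12 (-0.18 to -0.06) in fibroblast-like, -0.04 (-0.09 to 0.01) in vascular endothelial-like, 0.03 (-0.04 to 0.10) in cardiomyocyte-like, -0.03 (-0.14 to 0.08) in mural-like and -0.12 (-0.23 to 0.00) in T lymphocyte-like nuclei. It was 0.01 (-0.20 to 0.22) in epicardial or mesothelial-like, -0.01 (-0.14 to 0.12) in endocardial-like, -0.13 (-0.28 to 0.03) in myeloid-like and -0.07 (-0.31 to 0.17) in B lymphocyte-like nuclei. The interval of the fibroblast-like class lay below 0, that of the T lymphocyte-like class touched 0, and the others held it. The B lymphocyte-like class had unlike marker levels in the libraries, as given above.

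In fibroblast-like nuclei 14 members were measured, with a median of -0.10 against 0.01 over all genes. Col5a3 was lower past 1.5-fold, with 97 sunitinib and 145 vehicle fragments (-0.88, -1.27 to -0.51), against 0.349% of all genes, and 0 of 14 were higher, against 0.549%. Col5a3 stood at -0.80 (-1.26 to -0.34) with only nuclei of at least 3000 fragments at -0.82 (-1.66 to -0.06) after thinning to 1000 fragments per nucleus and at -0.88 (-1.47 to -0.32) with fragments shorter than a nucleosome, with too few fragments in each to count as measured. Over all barcodes, where Col5a3 stood at -0.31, its leading intronic bin took 40 sunitinib and 39 vehicle fragments. Among basement membrane genes Col18a1 had 125 sunitinib and 134 vehicle fragments (-0.41, -0.77 to -0.04), Col4a1 410 sunitinib and 385 vehicle fragments (-0.22, -0.42 to -0.01), Col4a2 434 sunitinib and 403 vehicle fragments (-0.20, -0.40 to 0.00) and Col15a1 298 sunitinib and 280 vehicle fragments (-0.22, -0.46 to 0.03). All 4 ratios were below 0, but the interval of Col15a1 held 0 and that of Col4a2 reached it. Col5a1 had 302 sunitinib and 244 vehicle fragments (0.00, -0.25 to 0.25), Col5a2 155 sunitinib and 101 vehicle fragments (0.31, -0.06 to 0.69) and Col6a3 124 sunitinib and 110 vehicle fragments (-0.13, -0.52 to 0.25), each with an interval that held 0. Col4a4 (0.23) and Col6a6 (-0.04) completed the 4 highest. The 3 type V chains thus stood apart in this class, Col5a3 below 0 and the other two at or above it.

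The short type I and III genes and Col6a1 and Col6a2 stayed under the minimum for a measured gene in this class, and their intervals are wide. Col1a2 had 58 sunitinib and 79 vehicle fragments (-0.75, -1.27 to -0.24) and Col6a2 42 sunitinib and 58 vehicle fragments (-0.77, -1.38 to -0.17), both below 0. Col1a1 had 73 sunitinib and 64 vehicle fragments (-0.12, -0.62 to 0.39), Col3a1 81 sunitinib and 81 vehicle fragments (-0.31, -0.77 to 0.16) and Col6a1 50 sunitinib and 37 vehicle fragments (0.12, -0.51 to 0.78). The ratios of the 2 type I genes differed in size, with intervals that overlapped, and the same was true of Col6a1 and Col6a2.

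The fibroblast-like class was made of 2 clusters whose proportions differed between the libraries. The smaller cluster held 73 sunitinib and 23 vehicle nuclei, and 30.2% of the class fragments with sunitinib and 7.0% with vehicle. Its collagen level was 0.496 with sunitinib and 0.485 with vehicle, its T lymphocyte marker level 1.35 with sunitinib and 1.22 with vehicle, and its fibroblast marker level 1.39 with sunitinib and 1.32 with vehicle. The larger cluster had a collagen level of 0.634 with sunitinib and 0.656 with vehicle, and a T lymphocyte marker level of 0.412 with sunitinib and 0.290 with vehicle. Over the whole class all 10 T lymphocyte markers had fragments in both libraries, and 10 of 10 were higher with sunitinib. In the larger cluster alone the collagen sum was -0.05 (-0.12 to 0.02), while Col5a3 stood at -0.76 (-1.20 to -0.35) and Col1a2 at -0.66 (-1.25 to -0.10), a calculation chosen after the data had been seen. The sum thus differed between the whole class and its larger cluster, and the values of Col5a3 and Col1a2 stayed below 0 in the larger one.

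In vascular endothelial-like nuclei 20 members were measured, with a median of -0.04 against 0.04 over all genes. Col19a1, a FACIT gene, was lower past the fold with 108 sunitinib and 128 vehicle fragments (-0.68, -1.06 to -0.30), against 0.116% of genes, and 0 were higher, against 0.159%. Col19a1 no longer counted in several settings. With nuclei of at least 3000 fragments it stood at -0.56 (-1.05 to -0.07), short of 1.5-fold. After thinning (-0.63, -1.40 to 0.10), with fragments shorter than a nucleosome (-0.99, -1.67 to -0.34) and without the deepest 5% of nuclei (-0.76, -1.22 to -0.32) it had too few fragments to count as measured, and at start sites no member was past the fold. It was followed by Col22a1 (141 sunitinib and 143 vehicle fragments, -0.45, -0.80 to -0.11), Col17a1 (-0.24) and Col14a1 (-0.22). As a family the FACIT genes had a sum of -0.29 (-0.45 to -0.14) in this class. The type IV genes, its most accessible collagens, were close to equal, with 1458 sunitinib and 1098 vehicle fragments (-0.02, -0.14 to 0.09) at Col4a1 and 1687 sunitinib and 1245 vehicle fragments (0.01, -0.10 to 0.11) at Col4a2. Col15a1 was highest with 402 sunitinib and 256 vehicle fragments (0.22, -0.01 to 0.45), followed by Col27a1 (0.08), Col24a1 (0.07) and Col8a2 (0.06). Col1a1 (-0.09), Col5a1 (0.02) and Col18a1 (-0.06) had intervals that held 0.

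In cardiomyocyte-like nuclei 14 members were measured, with a median of 0.10 against -0.06 over all genes. Both multiplexins were higher past the fold, Col15a1 with 203 sunitinib and 66 vehicle fragments (0.77, 0.37 to 1.20) and Col18a1 with 169 sunitinib and 62 vehicle fragments (0.60, 0.18 to 1.05), against 1.08% of all genes, and 0 were lower, against 1.51%. Col24a1 (163 sunitinib and 63 vehicle fragments, 0.52, 0.10 to 0.97) and Col22a1 (185 sunitinib and 76 vehicle fragments, 0.44, 0.05 to 0.85) followed. The lowest were Col27a1 (-0.27), Col4a1 (-0.21), Col19a1 (-0.20) and Col4a2 (-0.18), each with an interval that held 0. Per kb and 1000000 fragments, Col15a1 reached 0.879 with sunitinib and 0.512 with vehicle in this class, under its level in fibroblast-like nuclei. The cardiomyocyte marker level of the class was 2.38 with sunitinib and 2.99 with vehicle. A part with weak cardiomyocyte markers (0.633 with sunitinib and 0.583 with vehicle) held 48.0% of the class fragments with sunitinib and 37.9% with vehicle, with a collagen level of 0.434 in each. Clusters drawn at resolution 1.5 gave this part no class name. A cluster of 297 nuclei without a name at that resolution had a median enrichment at start sites of 8.18. T lymphocyte markers were also higher with sunitinib in this class, at 0.585 with sunitinib and 0.474 with vehicle (0.30, 0.09 to 0.52), 8 of 10 being above 0 and all having fragments in both libraries, while Col15a1 was open in T lymphocyte-like nuclei as given above. With clusters drawn at the finer resolution of 1.5 the class held a cluster of 84 sunitinib and 9 vehicle nuclei in which 4 of 10 T lymphocyte markers were at least 2-fold above the other nuclei. The part of these cells in the multiplexin values was not tested. At that resolution the part with weak cardiomyocyte markers is left out, while the cluster of 84 sunitinib and 9 vehicle nuclei stays in the class. Col15a1 then stood at 0.57 (0.02 to 1.18) and Col18a1 at 0.46 (-0.05 to 1.00), both short of 1.5-fold. With only nuclei of at least 3000 fragments Col18a1 stood at 0.38 (-0.13 to 0.94), while Col15a1, once the deepest 5% of nuclei were dropped, stood at 0.50 (-0.01 to 1.05). Neither gene counted as past the fold in these settings or with fragments shorter than a nucleosome, being short of the fold or having too few fragments.

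**Figure D3:**
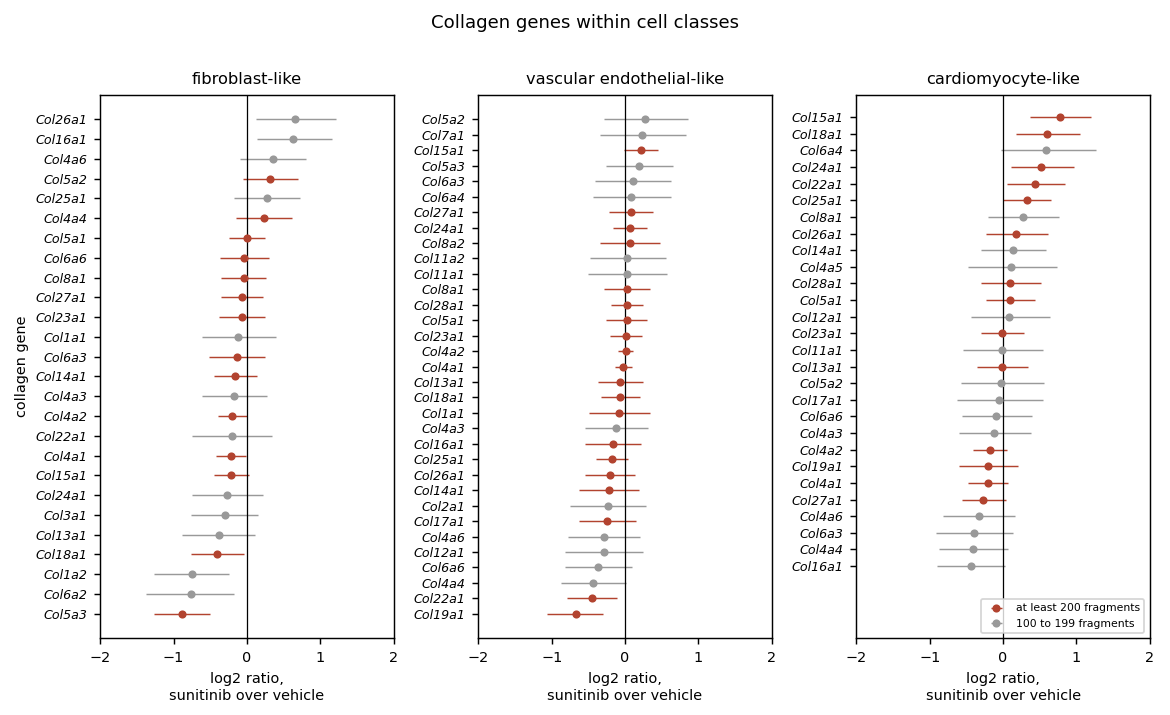
Log2 ratio of sunitinib over vehicle (horizontal axes, points with 95% counting intervals) for collagen genes with at least 100 fragments over both libraries (vertical axes) in fibroblast-like, vascular endothelial-like and cardiomyocyte-like nuclei, red from 200 fragments and grey below. Of the red points, Col5a3 is lowest in fibroblast-like nuclei (-0.88) and Col19a1 in vascular endothelial-like nuclei (-0.68), and Col15a1 is highest in cardiomyocyte-like nuclei (0.77).

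In the other classes few members could be measured, and none of them was past 1.5-fold. In mural-like nuclei these were Col4a1 (177 sunitinib and 174 vehicle fragments, -0.04, -0.35 to 0.27) and Col4a2 (203 sunitinib and 186 vehicle fragments, 0.06, -0.24 to 0.35), against 0.253% of genes past the fold in each direction. Col3a1 had 22 sunitinib and 6 vehicle fragments (1.72, 0.46 to 3.40) there, too few to count as measured. T lymphocyte markers were higher with sunitinib in mural-like nuclei too, at 0.543 with sunitinib and 0.319 with vehicle (0.76, 0.34 to 1.20). In endocardial-like nuclei Col4a1 had 77 sunitinib and 153 vehicle fragments (0.26, -0.16 to 0.66) and Col4a2 69 sunitinib and 132 vehicle fragments (0.31, -0.13 to 0.74), against 1.97% of genes higher and 0.329% lower. In this class 3 lymphatic endothelial markers were also at least 2-fold above the other nuclei. The lymphatic endothelial marker level was 0.560 with sunitinib and 0.364 with vehicle (0.62, 0.27 to 0.97). The endocardial marker level was 0.741 with sunitinib and 0.807 with vehicle (-0.12, -0.29 to 0.04). In T lymphocyte-like nuclei the 5 measured members were Col15a1 (0.20), Col4a2 (0.14), Col26a1 (0.01), Col27a1 (-0.11) and Col23a1 (-0.27), against 1.66% of genes higher and 0.852% lower. Col26a1 and Col15a1, the highest members over whole libraries, had intervals that held 0 within this class. In epicardial or mesothelial-like, myeloid-like and B lymphocyte-like nuclei no member was measured.

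Genes that act on collagen were read in the same way. Of 31 genes that make and modify collagen, all measured over whole libraries, 1 was higher past the fold, against 13.8% of all genes, and 5 were lower, against 7.26%, with a median of -0.10. The higher one was P4ha1, a catalytic subunit of the prolyl hydroxylase that stabilises the triple helix, with 1988 sunitinib and 995 vehicle fragments (0.66, 0.55 to 0.77). The 3 furthest lower were Loxl4, a cross-linking oxidase (360 sunitinib and 397 vehicle fragments, -0.48, -0.69 to -0.27), Tll1, a protease that trims procollagen (704 sunitinib and 769 vehicle fragments, -0.47, -0.62 to -0.32), and Adamts2, which removes the amino-terminal propeptide (2835 sunitinib and 2860 vehicle fragments, -0.35, -0.43 to -0.28). Outside the lymphoid classes P4ha1 had 970 sunitinib and 563 vehicle fragments (0.50, 0.35 to 0.65). In fibroblast-like nuclei it had 155 sunitinib and 81 vehicle fragments (0.63, 0.23 to 1.04), the 1 of 6 measured genes of this list past 1.5-fold there, against 0.549% of all genes higher. In vascular endothelial-like nuclei it had 508 sunitinib and 264 vehicle fragments (0.51, 0.30 to 0.73), short of that fold, and in cardiomyocyte-like nuclei 150 sunitinib and 67 vehicle fragments (0.32, -0.10 to 0.76). P4ha1 was thus above 0 in each of these 3 classes, with an interval that held 0 in the cardiomyocyte-like one.

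Of the genes for collagen breakdown and its inhibitors 11 of 15 were measured over whole libraries, with a median of -0.20, 0 higher past the fold (13.8% of all genes) and 3 lower (7.26%): the membrane protease Mmp14 (522 sunitinib and 540 vehicle fragments, -0.39, -0.56 to -0.21), the collagen uptake receptor Mrc2 (923 sunitinib and 935 vehicle fragments, -0.36, -0.49 to -0.23) and the inhibitor Timp3 (1839 sunitinib and 1852 vehicle fragments, -0.35, -0.44 to -0.26). Outside the lymphoid classes Mmp14 (237 sunitinib and 267 vehicle fragments, -0.46, -0.72 to -0.20) and Mrc2 (366 sunitinib and 400 vehicle fragments, -0.41, -0.62 to -0.21) were lower past the fold, against 2.36% of all genes, and the inhibitor Timp4 (154 sunitinib and 94 vehicle fragments, 0.42, 0.05 to 0.81) was higher, against 2.0%. Of the 10 collagen receptor genes 1 was lower over whole libraries, against the same 7.26%, Gp6 of platelets (149 sunitinib and 155 vehicle fragments, -0.40, -0.73 to -0.06), with a median of -0.05, and of 8 measured outside the lymphoid classes 0 were past the fold.

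The third comparison added Yoda1 to sunitinib, and set the sunitinib plus Yoda1 library against the sunitinib library and against the vehicle library. Both comparisons share the sunitinib plus Yoda1 library, which held 583 fragments over all collagen windows together. In it 42 of 44 members had at least 1 fragment, Col9a3 and Col20a1 having none. Over sunitinib the collagen sum was 0.09 (-0.03 to 0.21), with a level of 0.415 with sunitinib plus Yoda1 and 0.391 with sunitinib. Over vehicle it was -0.14 (-0.26 to -0.02), with 0.415 under sunitinib plus Yoda1 and 0.457 under vehicle. Over these windows summed collagen accessibility lay between that of the other two libraries, with an interval that held 0 against sunitinib. The direction over sunitinib turned at start sites (-0.33, -0.88 to 0.12) and with short fragments (-0.07, -0.24 to 0.09), so no order against sunitinib can be read.

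Over sunitinib 3 members were measured, 0 of them past 1.5-fold, against 7.83% of all genes higher and 8.78% lower. Col4a1 had 57 sunitinib plus Yoda1 and 3795 sunitinib fragments (0.47, 0.06 to 0.84), Col4a2 73 sunitinib plus Yoda1 and 4782 sunitinib fragments (0.49, 0.13 to 0.82), and the transmembrane member Col23a1 24 sunitinib plus Yoda1 and 3138 sunitinib fragments (-0.49, -1.16 to 0.06). The network-forming family, which holds the type IV pair, had a sum of 0.36 (0.14 to 0.57). Over vehicle 5 members were measured, of which 1 was lower past 1.5-fold, Col23a1 with 24 sunitinib plus Yoda1 and 2886 vehicle fragments (-0.70, -1.38 to -0.16), against 5.34% of genes, and 0 were higher, against 6.34%. With fragments shorter than a nucleosome Col23a1 stood at -0.95 over vehicle (-1.97 to -0.20) but had too few fragments to count as measured, and no member was then past the fold. Col4a2 (0.36), Col4a1 (0.28), Col5a1 (0.11) and Col25a1 (-0.36) had intervals over vehicle that held 0.

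The fibril genes had too few fragments in the sunitinib plus Yoda1 library to be read. Col1a1 had 3 sunitinib plus Yoda1, 650 sunitinib and 556 vehicle fragments, Col1a2 4 sunitinib plus Yoda1, 279 sunitinib and 342 vehicle fragments, Col3a1 2 sunitinib plus Yoda1, 302 sunitinib and 252 vehicle fragments and Col6a1 3 sunitinib plus Yoda1, 317 sunitinib and 362 vehicle fragments. Among members under the minimum, Col4a5, a type IV chain on the X chromosome, had 12 sunitinib plus Yoda1, 430 sunitinib and 365 vehicle fragments, a ratio of 1.41 over sunitinib (0.39 to 2.17) and 1.31 over vehicle (0.29 to 2.07). Per kb and 1000000 fragments, Col4a1 stood at 1.90 with sunitinib plus Yoda1, 1.38 with sunitinib and 1.58 with vehicle, and Col4a2 at 2.04 with sunitinib plus Yoda1, 1.46 with sunitinib and 1.61 with vehicle. The summed cardiomyocyte marker level was 1.30 with sunitinib plus Yoda1 and 0.645 with sunitinib, and that of T lymphocyte markers 0.410 with sunitinib plus Yoda1 and 1.12 with sunitinib, with 8 of the 10 T lymphocyte markers holding fragments in the sunitinib plus Yoda1 library. The part of this make-up in the collagen values was not tested.

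**Figure D4:**
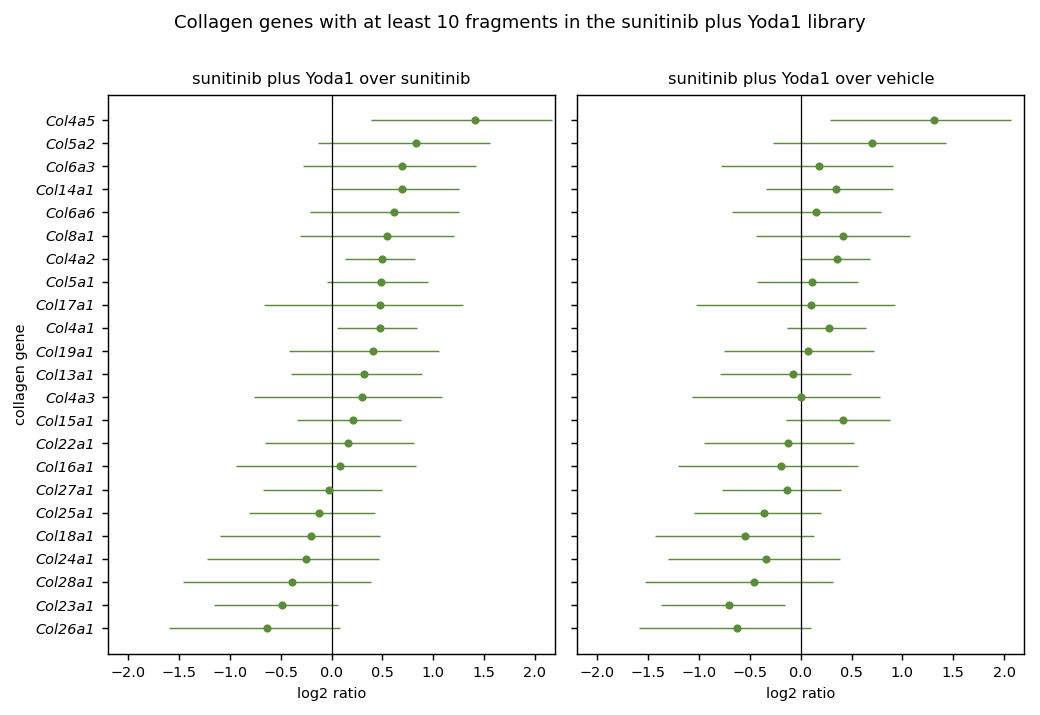
Log2 ratio of the sunitinib plus Yoda1 library over the sunitinib library (left) and over the vehicle library (right), points with 95% counting intervals, for collagen genes with at least 10 fragments in the sunitinib plus Yoda1 library, a choice that favours genes that are high there. Most intervals hold 0, Col4a5 lies above 0 in both panels (1.41 and 1.31), and Col4a1 and Col4a2 lie above 0 on the left (0.47 and 0.49).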

How the data were processed

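Multiome libraries of wild-type mouse heart nuclei were used through their ATAC fragment files, with 1 library for each of 3 groups, grouped by sample titles and the design text. The deposited files hold, for each fragment and barcode, the count of read pairs that gave it, not normalized. Per the file headers these counts came from cellranger-arc 2.0.0 (sunitinib and vehicle) and 2.0.2 (sunitinib plus Yoda1), against mm10, and versions and groups cannot be told apart for the Yoda1 comparisons. The submitters' processing notes name mm10, Cell Ranger and Signac. Depth per library stands in the report.

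Fragments were assigned by midpoint to windows of GENCODE genes (body plus 2 kb upstream, or within 1 kb of start sites). Nuclei had at least 1000 fragments on the autosomes and X, at least 4-fold enrichment of ends around start sites (50 bp either side, against flanks 1900 to 2000 bp away), and fewer than 4 nucleosome-length fragments for each shorter one. Doublets were neither called nor removed. Nuclei were clustered from 60000 tiles of 5000 bp (30 components, 20 neighbours, Leiden resolution 0.8), leaving out 1209 tiles near collagen genes. A cluster took a class name with at least 3 listed markers at 2-fold. Windows were scaled to fragments on the autosomes and X. Log2 ratios had 0.5 added to each count, with conditional exact 95% intervals, and whole libraries were read at a log2 ratio of 0.32 (1.5-fold in classes and with Yoda1). The calculation was tested on simulated data. Python 3.11.15, numpy 2.4.6, scipy 1.17.1, pandas 2.3.3, scanpy 1.11.5, scikit-learn 1.9.0, python-igraph 0.11.9 and matplotlib 3.10.9 were used.

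The collagen genes as a topic, the gene lists and the folds were chosen with earlier results of these data known, though the rule for members uses symbols and chromosomes alone. Named genes were 12 listed fibril, basement membrane and beaded filament genes in each comparison, the 4 highest and 4 lowest measured members, the 3 members with most fragments per kb in each class, up to 3 pathway genes past the fold each way and divergent pairs. Bins, and Col4a5 with Yoda1, were chosen after values were seen. Windows, fragment length, scaling, sets of nuclei, clustering and minimums were varied. Protein sequences were not used here.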

Additional observations from a re-analysis of the deposited data

Results flagged for a closer look

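Of the members compared within cell classes, 2 had ratios of opposite sign in a pair of classes, each with an interval that excluded 0. Col18a1 had a log2 ratio of sunitinib over vehicle of 0.598 in cardiomyocyte-like nuclei (169 sunitinib and 62 vehicle fragments) and -0.405 in fibroblast-like nuclei (125 sunitinib and 134 vehicle fragments). Col22a1 stood at 0.436 in cardiomyocyte-like nuclei (185 sunitinib and 76 vehicle fragments) and at -0.451 in vascular endothelial-like nuclei (141 sunitinib and 143 vehicle fragments). The share of all measured genes with such a pair was not counted, so it cannot be said whether 2 members are many or few. With 1 library per group the difference between the classes was not tested. In the larger fibroblast-like cluster alone Col18a1 stood at -0.256 (-0.65 to 0.13), and with clusters at resolution 1.5 it stood at 0.458 in cardiomyocyte-like nuclei (-0.05 to 1.00). The cardiomyocyte marker level of the cardiomyocyte-like class was 2.38 with sunitinib and 2.99 with vehicle.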

How the results depend on the processing

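Of the sums, counts and class orders, 108 alternative values stayed within the spread allowed, 45 moved and 1 changed sign. Of the values of single genes 953 stayed, 130 moved and 1 changed sign. Over whole libraries the sum of -0.23 was -0.20 with fragments shorter than a nucleosome, -0.28 scaled to fragments over gene windows and -0.043 outside the lymphoid classes, and the 15 members past the fold, all lower, became 2 outside the lymphoid classes, where Col6a1 turned to 0.063, and 4 of 11 measured at start sites. Of those 4, Col18a1 was lower, Col8a2, not among the 15, was lower, and Col15a1 and Col27a1 were higher. At start sites the class sums were -0.185 in fibroblast-like (-0.12 as reported), -0.82 in epicardial or mesothelial-like (0.01), -0.232 in endocardial-like (-0.01), 0.064 in vascular endothelial-like (-0.04), -0.07 in cardiomyocyte-like (0.03), -0.324 in T lymphocyte-like (-0.12) and 0.251 in B lymphocyte-like nuclei (-0.07), and the vascular endothelial-like count was 0. With the larger fibroblast-like cluster alone, chosen after seeing the data, the sum was -0.049. Short fragments gave -0.389 in myeloid-like nuclei (-0.13 as reported), thinning gave 0.386 in epicardial or mesothelial-like nuclei, leaving out the 5% of nuclei with most fragments gave -0.254 in T lymphocyte-like nuclei, and a minimum of 3000 fragments gave 0.173 in T lymphocyte-like nuclei, a change of sign, and -0.357 in B lymphocyte-like nuclei.

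The 1 member past the fold in fibroblast-like nuclei became 0 with short fragments, with at least 3000 fragments and after thinning, and 6 with a minimum of 50 fragments per gene. The 1 in vascular endothelial-like nuclei became 0 with short fragments, without the deepest 5%, with at least 3000 fragments and after thinning. The 2 in cardiomyocyte-like nuclei became 0 with short fragments, without the deepest 5%, with at least 3000 fragments and at resolution 1.5, 1 with clusters from all tiles and 5 with a minimum of 50. With that minimum 1 member passed in each of the endocardial-like, myeloid-like and T lymphocyte-like nuclei. The 16 members highest in fibroblast-like nuclei with vehicle were 10 at start sites.

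Over sunitinib the sunitinib plus Yoda1 sum of 0.09 was -0.334 at start sites and -0.07 with short fragments, and its count of 0 became 2 with all fragments taken once per start and end and 3 with a minimum of 50. Over vehicle the sum of -0.14 was -0.548 at start sites and -0.274 with short fragments, and the count of 1 became 0 with short fragments, 3 with all fragments and 4 with a minimum of 50. The cause was not tested. No paired analysis was possible because each group had 1 library, so no replicate could be left out either. Depth limits the short type I, III and VI genes in single classes and nearly all members in the sunitinib plus Yoda1 library.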
